A study of Mus musculus with 21 samples.

Results

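The 33 genes described here encode enzymes and regulators of cholesterol and fatty acid synthesis, and were taken as a list of named genes of these pathways. The list used no measured value as a criterion, but was drawn up with earlier results of these data known. Of these, 32 were held by at least 1 of the 4 expression tables and 31 by all 4. Fdps was held by the ruxolitinib washout table only, with a mean of 7.52 log2 CPM after ruxolitinib washout. Why the other tables lack it was not tested, so its absence there is not a measured low level. Scd1 is not analysed here. The tables hold 11670, 11868, 11355 and 13085 genes. By role, the members comprise 8 genes of the mevalonate arm, 11 of the sterol arm, 6 that control SREBP or carry sterols, and 8 of the fatty acid arm.

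Cells build cholesterol from acetyl-CoA through mevalonate and the isoprenoid farnesyl diphosphate, which is then joined to squalene, closed into lanosterol and trimmed to cholesterol. The same acetyl-CoA pool feeds fatty acid synthase, elongases and desaturases. Both arms are transcribed under the SREBP factors, membrane-bound proteins that SCAP escorts to the Golgi for cleavage when sterols are scarce. INSIG proteins hold them back in the endoplasmic reticulum when sterols are plentiful. In dividing blood cells, cytokine and growth signals can act on this control, a link that was not tested here.

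The cells were Ba/F3, a mouse pro-B line whose parental cells depend on interleukin-3. All groups expressed JAK2-V617F, the activating JAK2 mutant of myeloproliferative neoplasms, which the paper reports to make Ba/F3 growth independent of that factor. Ruxolitinib is an ATP-competitive JAK1/JAK2 inhibitor of type I, and CHZ868 is a type II JAK2 inhibitor. In the continuous arm, cells received DMSO, 1 μM ruxolitinib or 1 μM CHZ868 for 6 h (DMSO-treated, ruxolitinib-treated and CHZ868-treated). In the washout arm, cells received DMSO, 1 μM ruxolitinib or 1 μM CHZ868 for 1 h, were washed, and were kept for 6 h without inhibitor (ruxo-wash and CHZ868-wash, each with its own DMSO-wash controls). Each of the 7 groups had 3 libraries. The values are log2 CPM as the authors normalized them within a table, so levels were compared only within a table unless stated.

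Depth was 7880000 to 10670000 reads per library on the listed genes in 3 tables and is unknown for the ruxo-wash table. The read count behind a member ranged, in those 3 tables, from 28 reads for Tm7sf2 in a CHZ868-wash library to 8427 for Scd2 in a ruxolitinib-treated library. The variance between replicates was 2.17 to 14.4 times the sampling noise of these depths in 11 pairs of libraries, over genes with at least 50 reads in both. It was 28.5 and 31.3 times where ruxolitinib-treated replicate 2 was one of the pair, and 23.7 and 38.5 times where it was the third DMSO-wash library of the CHZ868 experiment (replicate 3). Both libraries therefore stood apart from their groups, and results are given with and without them where they matter. The pro-B and interleukin-3 receptor markers Ptprc, Il3ra, Csf2rb, Csf2rb2, Cd79a and Cd79b were listed in every table, 6 of the 12 examined, while Vpreb1, Igll1, Ebf1, Dntt, Rag1 and Il7r were in none. No T cell marker of 6 was listed, and the macrophage markers that were listed, 2 to 4 of 6, summed to 12.8 to 54.7 CPM.

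Promoter windows from RefSeq (GRCm38.p6) were found for 26 of the 33 members. They are shown for the 4 genes of sterol synthesis with the largest rises under CHZ868, for Fasn, which fell, and for Idi1, which was lower under ruxolitinib. Each line runs 5′ to 3′ on the gene's strand from 250 bases before to 50 bases after the annotated start, and capitals mark a sterol element (TCACNCCAC), an E-box (CACGTG) or a CCAAT box (CCAAT) on either strand. Hmgcs1 lies at chr13:119690101-119690400 (plus strand), Nsdhl at chrX:72918271-72918570 (plus), Cyp51 at chr5:4104648-4104947 (minus), Sc5d at chr9:42264251-42264550 (minus), Fasn at chr11:120824498-120824797 (minus) and Idi1 at chr13:8885356-8885655 (plus).
Hmgcs1: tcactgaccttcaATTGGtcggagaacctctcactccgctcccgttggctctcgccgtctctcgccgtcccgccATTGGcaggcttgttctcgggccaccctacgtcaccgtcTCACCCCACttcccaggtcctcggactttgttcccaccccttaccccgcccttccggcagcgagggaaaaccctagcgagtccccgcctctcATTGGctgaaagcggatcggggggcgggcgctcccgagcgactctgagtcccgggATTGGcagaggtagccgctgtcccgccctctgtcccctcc
Nsdhl: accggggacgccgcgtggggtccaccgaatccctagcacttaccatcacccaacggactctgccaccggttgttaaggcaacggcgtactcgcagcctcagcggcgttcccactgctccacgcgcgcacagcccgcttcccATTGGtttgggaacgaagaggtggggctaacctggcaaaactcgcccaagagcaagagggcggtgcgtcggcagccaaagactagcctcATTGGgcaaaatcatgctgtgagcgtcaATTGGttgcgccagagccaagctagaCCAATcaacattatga
Cyp51: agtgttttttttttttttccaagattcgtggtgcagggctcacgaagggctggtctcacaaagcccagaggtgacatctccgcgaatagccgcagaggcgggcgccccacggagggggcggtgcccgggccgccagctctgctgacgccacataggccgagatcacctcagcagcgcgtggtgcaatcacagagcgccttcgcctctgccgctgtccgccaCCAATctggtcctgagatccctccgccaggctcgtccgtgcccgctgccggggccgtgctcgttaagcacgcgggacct
Sc5d: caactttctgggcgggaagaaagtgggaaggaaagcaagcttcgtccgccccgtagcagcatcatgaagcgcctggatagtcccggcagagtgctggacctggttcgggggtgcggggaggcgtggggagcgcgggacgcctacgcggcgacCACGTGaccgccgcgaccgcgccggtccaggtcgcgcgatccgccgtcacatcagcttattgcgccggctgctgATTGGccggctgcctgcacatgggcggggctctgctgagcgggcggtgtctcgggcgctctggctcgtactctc
Fasn: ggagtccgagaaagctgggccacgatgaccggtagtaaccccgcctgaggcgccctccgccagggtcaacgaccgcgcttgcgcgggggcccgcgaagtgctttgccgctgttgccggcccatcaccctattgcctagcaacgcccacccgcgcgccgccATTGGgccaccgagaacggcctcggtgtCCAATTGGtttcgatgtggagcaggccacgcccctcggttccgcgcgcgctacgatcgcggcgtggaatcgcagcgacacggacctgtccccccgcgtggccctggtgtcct
Idi1: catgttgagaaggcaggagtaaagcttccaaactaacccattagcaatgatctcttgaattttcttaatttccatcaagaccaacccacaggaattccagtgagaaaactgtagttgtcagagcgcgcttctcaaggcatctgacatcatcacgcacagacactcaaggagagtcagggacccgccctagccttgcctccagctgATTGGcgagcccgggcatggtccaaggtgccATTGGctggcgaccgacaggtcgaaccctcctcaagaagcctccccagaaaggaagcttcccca

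The sterol element, the letters that SREBP is known to bind, was present in the Hmgcs1 window alone, 137 bases before the start, that is in 3.85% of the 26 member windows and in 1.24% of all 32851 windows. A CCAAT box was present in 17 member windows (65.4%, against 37.4% of all windows), with up to 5 matches in a window (Mvk), and 4 each for Hmgcs1 and Nsdhl. The E-box was present in 4 (Hsd17b7, Sc5d, Scap and Insig1; 15.4% against 7.15%). A GC box (GGGCGG, either strand) was present in 21 (80.8% against 35.7%). The STAT-type element TTCNNNGAA was present in Ggps1 and Ebp (7.69% against 8.3%). No match of one motif overlapped a match of another. The Fads2 window held no sterol element, E-box or CCAAT box. Windows were not used for Fdps, Fdft1, Sqle, Stard4, Scd1, Scd2 and Fads1. For each other member, the window nearest the start of its principal annotated transcript was taken. That of Acaca lay 22316 bases from this start and that of Pmvk 453 bases. Both count in the shares and held no sterol element, E-box or CCAAT box. These matches describe letters in a short window and no binding was measured.

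In DMSO-treated cells, the fatty acid arm gave the 4 highest levels among the members when CPM was divided by transcript length. Fads1, the delta-5 desaturase, stood at 103.8 ± 1.21 CPM per kilobase (SD, n = 3), followed by Scd2, a stearoyl-CoA desaturase, at 98.5 ± 1.52, Fads2, the delta-6 desaturase, at 63.4 ± 1.48, and Acly, which makes cytosolic acetyl-CoA from citrate, at 47.4 ± 1.58. The libraries of these neighbours in the order did not overlap. Srebf2, the SREBP gene that mainly drives sterol synthesis, came next at 33.2 ± 0.713, above Srebf1, which mainly drives fatty acid synthesis, at 20.4 ± 0.884. Sqle, squalene epoxidase, was the highest of the sterol arm at 25.3 ± 1.16, and Hsd17b7, a 3-keto reductase of sterol demethylation, the lowest of all members at 4.61 ± 0.0729. Below the first 6 genes the order was loose: of 30 neighbouring pairs, the libraries of 20 overlapped. Levels of Acat2, Idi1, Fdft1, Ggps1, Acaca, Elovl6 and Scd2 are uncertain, since each shares at least 90% identity over at least 200 bases with a pseudogene or paralog (Acat2 with Acat3 at 97.7%, Idi1 with Gm13502 at 100% over 684 bases, Acaca with Gm5182 at 99.2% over 6118 bases, Scd2 with Scd1 at 95.5% over 623 bases). Hmgcs1 and Scap share exact stretches with overlapping transcripts (Gm48342 and 5830462I19Rik).

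**Figure D1:**
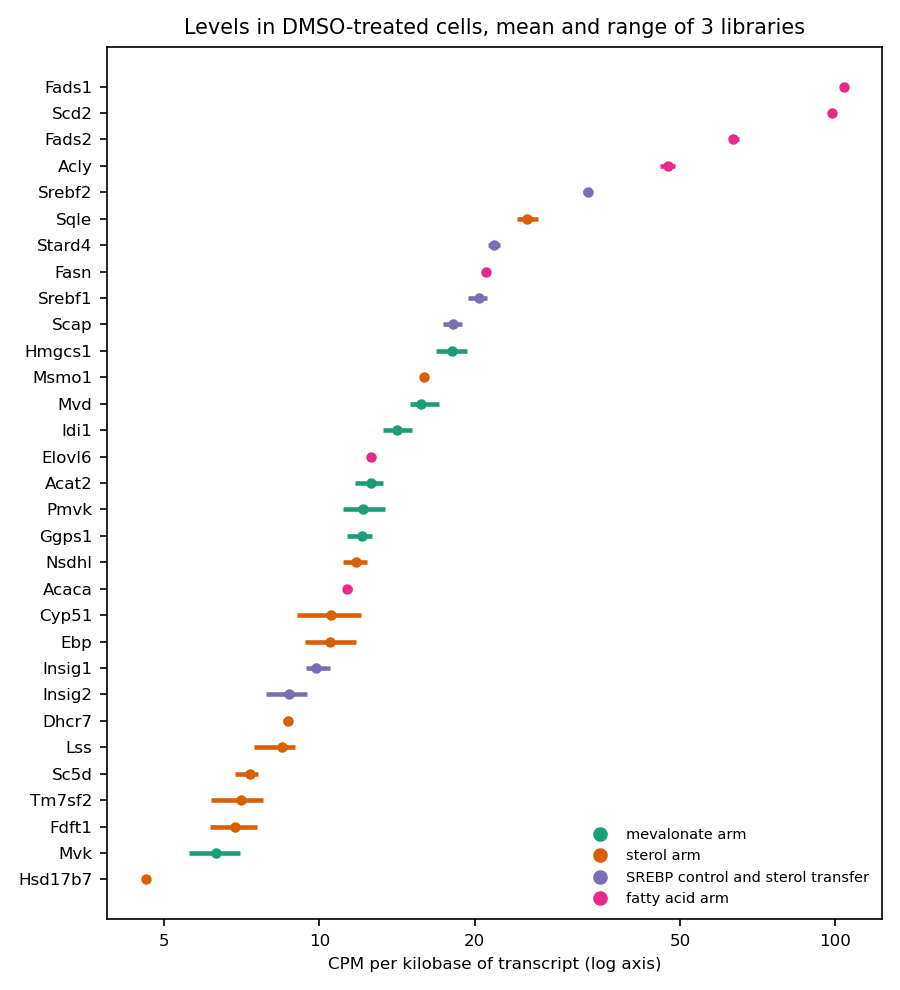
Level of each of 31 members in DMSO-treated cells, as CPM per kilobase of transcript on a log axis, with the mean (point) and the range of 3 libraries (bar), coloured by role. Fads1, Scd2, Fads2 and Acly lie above all other members, and Hsd17b7 lies lowest.

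The first comparison asked how 6 h of continuous type II inhibition with CHZ868 changed these genes. The members split in direction: 8 of 31 rose and 6 fell (limma-trend, Benjamini-Hochberg over 11670 genes, adjusted p under 0.05). These 14 are 45.2% of the members, while 53.2% of all genes were called, 26.8% higher and 26.4% lower, so the share of members called was not above that of the table. The median log2 difference was 0.046 over the members and -0.0084 over all genes. Rises were led by Fads2, Nsdhl, Sc5d, Cyp51 and Hmgcs1, and falls by Tm7sf2, Fasn and Stard4. In the same libraries, the summed pro-B and interleukin-3 receptor markers were 2615 to 2873 CPM in CHZ868-treated against 3349.6 to 3415 CPM in DMSO-treated libraries, and their part in the results was not tested. All groups were the same cell line, and bulk RNA cannot tell fewer cells that express these genes from less of their RNA per cell.

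By role, 2 of the 7 mevalonate arm genes rose and none fell, with a median log2 difference of 0.20. Of the 11 sterol arm genes, 4 rose and 1 fell, with a median of -0.039. Of the 6 control and transfer genes none rose and 2 fell, with a median of -0.19. Of the 7 fatty acid arm genes 2 rose and 3 fell, with a median of 0.13. Each list thus held genes on both sides of zero, and no test of a list was made.

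**Figure D2:**
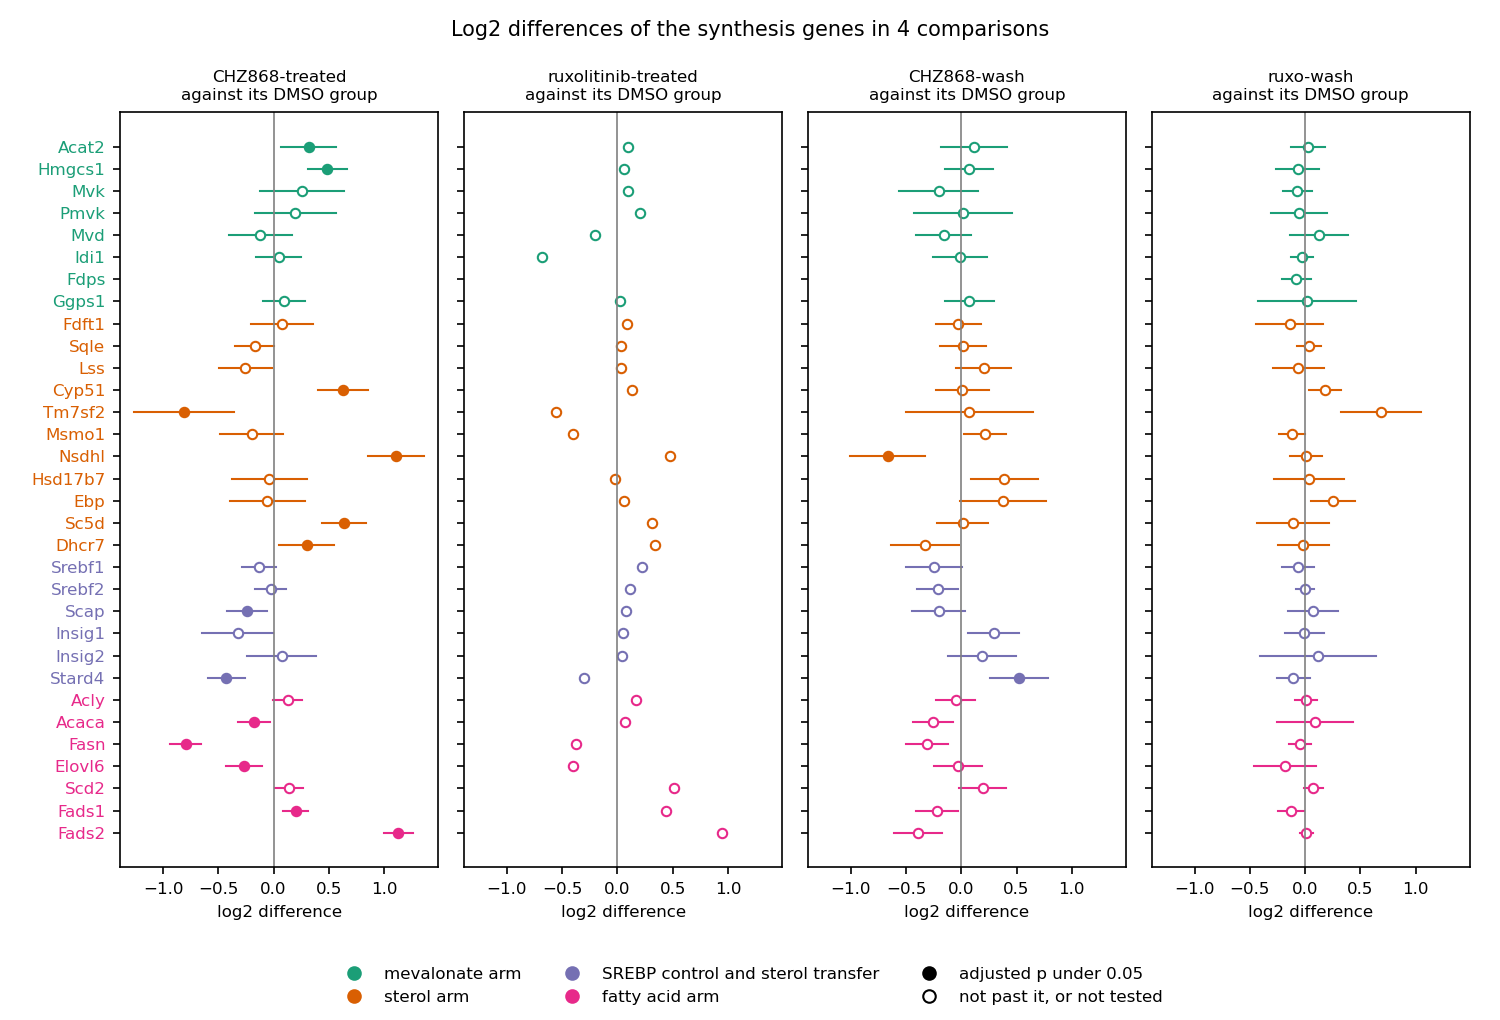
Log2 difference of each member from the DMSO group in 4 comparisons, with 95% confidence intervals as bars where a test was made, ordered and coloured by role. Filled points passed an adjusted p of 0.05: 14 for CHZ868-treated, 2 for CHZ868-wash and none for ruxo-wash. The ruxolitinib-treated differences were taken after median centring and were not tested.

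Fads2 (chr19:10062765-10101746 in GRCm38, minus strand) showed the largest rise. Its enzyme introduces the first new double bond in the conversion of dietary polyunsaturated fatty acids to longer ones. The log2 CPM of Fads2 was 7.63, 7.68 and 7.62 in the DMSO-treated libraries and 8.67, 8.79 and 8.86 in the CHZ868-treated libraries. All CHZ868-treated libraries lay about 1 log2 unit above all controls. The log2 difference was 1.13 ± 0.061 (SE), a 2.19-fold rise (limma-trend, adjusted p = 1.25e-09). Its neighbour Fads1, which starts 81142 bases away on the opposite strand and acts later in the same conversion, rose by 0.20 ± 0.054 (adjusted p = 0.00597).

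Nsdhl (chrX:72918557-72958514, plus strand), which removes the carboxyl group during C-4 demethylation of sterols, was the leading gene of the sterol arm. It was at 4.69, 4.61 and 4.76 log2 CPM in DMSO-treated libraries and 5.68, 5.66 and 6.04 in CHZ868-treated libraries. The groups were well apart, with replicate 3 the highest of the CHZ868-treated libraries. The log2 difference was 1.11 ± 0.118 (adjusted p = 1.77e-06), a 2.16-fold rise.

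Sc5d, the lathosterol desaturase, was at 5.19, 5.05 and 5.18 in DMSO-treated and 5.74, 5.75 and 5.84 in CHZ868-treated libraries. It rose by 0.64 ± 0.095 log2 units (adjusted p = 4.81e-05). Cyp51, the lanosterol 14-alpha demethylase, was at 5.16, 5.37 and 5.57 in DMSO-treated and 6.03, 6.03 and 5.94 in CHZ868-treated libraries. Its controls were widely spread yet lay below all treated libraries, and the log2 difference was 0.63 ± 0.105 (adjusted p = 0.000141). Cyp51 overlaps Akap9 on the other strand, and the use of strand in counting is not known. Hmgcs1, which makes HMG-CoA and whose promoter held the sterol element, was at 5.97, 5.87 and 6.07 in DMSO-treated and 6.46, 6.54 and 6.37 in CHZ868-treated libraries. It rose by 0.48 ± 0.083 (adjusted p = 0.000169). The smaller rises of Acat2, a cytosolic acetyl-CoA acetyltransferase (0.32 ± 0.116, adjusted p = 0.0307), and Dhcr7, the 7-dehydrocholesterol reductase (0.30 ± 0.115, adjusted p = 0.0397), depended on single libraries. Acat2 was not called without CHZ868-treated replicate 2 (0.24, adjusted p = 0.122), DMSO-treated replicate 1 (0.27, adjusted p = 0.121) or replicate 2 (0.33, adjusted p = 0.073). Dhcr7 was called in 1 of 6 fits that left out a library, that without CHZ868-treated replicate 1, and its adjusted p in the others ran from 0.0602 without CHZ868-treated replicate 3 to 0.111 without DMSO-treated replicate 3.

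Among the falls, Tm7sf2, a sterol C-14 reductase, was at 3.54, 3.22 and 3.43 log2 CPM in DMSO-treated and 2.50, 2.60 and 2.66 in CHZ868-treated libraries. These values rest on few reads, 93 to 100 against 44 to 55 per library. The log2 difference was -0.81 ± 0.211 (adjusted p = 0.00459). Tm7sf2 overlaps Vps51 on the same strand.

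Fasn (chr11:120805846-120824547, minus strand), the fatty acid synthase itself, was at 7.72, 7.75 and 7.70 in DMSO-treated and 6.81, 6.99 and 6.99 in CHZ868-treated libraries. The 3 controls lay close together and every treated library was well below them. The log2 difference was -0.79 ± 0.067 (adjusted p = 1.33e-07), a 1.73-fold fall. Elovl6, the elongase that extends palmitate, was at 6.26, 6.22 and 6.21 in DMSO-treated and 5.89, 6.01 and 5.99 in CHZ868-treated libraries, and fell by 0.27 ± 0.078 (adjusted p = 0.00925). Acaca, the acetyl-CoA carboxylase that supplies malonyl-CoA, fell by 0.18 ± 0.068 (adjusted p = 0.0395). Its call was kept without CHZ868-treated replicate 1 or 3 and lost in the other 4 fits that left out a library, with an adjusted p up to 0.131. In the fatty acid arm, then, synthase, elongase and carboxylase were lower while both front-end desaturases were higher, and Acly (0.13 ± 0.060, adjusted p = 0.0865) and Scd2 (0.14 ± 0.059, adjusted p = 0.0548) did not pass.

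Stard4, a cytosolic sterol transfer protein and a known SREBP target, was at 6.76, 6.81 and 6.83 in DMSO-treated and 6.47, 6.42 and 6.24 in CHZ868-treated libraries. It fell by 0.43 ± 0.077 (adjusted p = 0.000286), opposite in direction to Hmgcs1, Cyp51 and Sc5d. Scap, the escort of SREBP, was at 6.27, 6.32 and 6.20 against 5.95, 5.96 and 6.17, and fell by 0.24 ± 0.085 (adjusted p = 0.0274). That call was lost without CHZ868-treated replicate 1 (adjusted p = 0.0666) or 2 (0.0841) and without DMSO-treated replicate 1 (0.0778) or 2 (0.115). Neither SREBP gene passed: Srebf1 differed by -0.13 ± 0.073 (adjusted p = 0.14) and Srebf2 by -0.027 ± 0.067 (adjusted p = 0.75). Insig1 was at 4.83, 4.68 and 4.72 against 4.40, 4.73 and 4.14, with overlap and a difference of -0.32 ± 0.15 (adjusted p = 0.0826). It passed only without CHZ868-treated replicate 2 (-0.48, adjusted p = 0.016). Insig2 differed by 0.076 ± 0.147 (adjusted p = 0.685). Of the 17 members that did not pass, 15 had a 95% interval within 0.58 log2 units of zero on both sides, and Mvk (up to 0.64) and Insig1 (down to -0.64) did not.

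**Figure D3:**
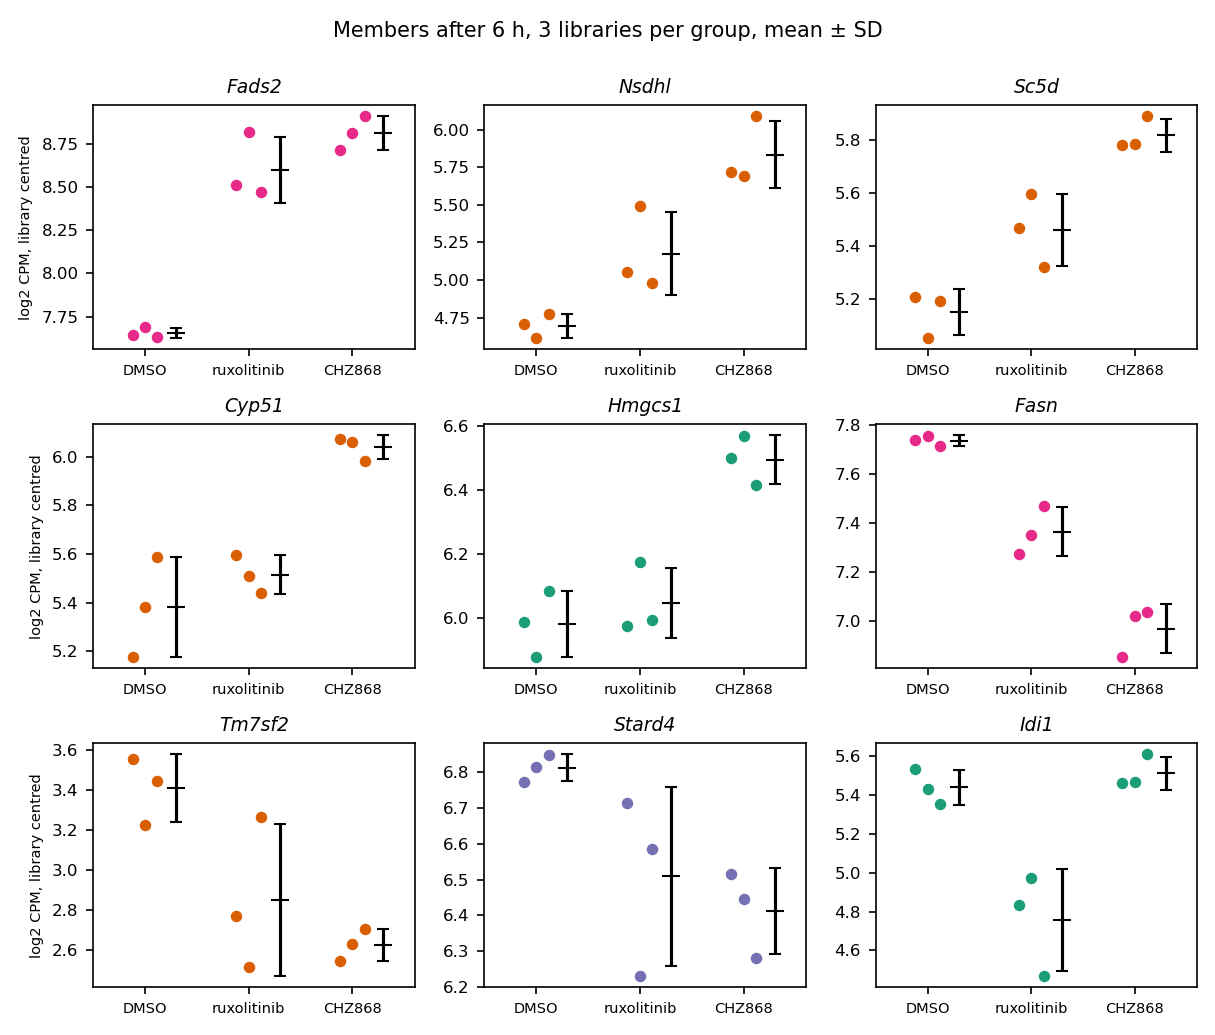
Log2 CPM of 9 members in the DMSO-treated, ruxolitinib-treated and CHZ868-treated libraries after subtraction of library medians taken over 11624 genes common to both tables; points are libraries, bars the mean and SD of 3. Fads2 is higher in both inhibitor groups, Hmgcs1 and Cyp51 are higher in CHZ868-treated cells, and Idi1 is lower in ruxolitinib-treated cells.

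Neighbouring pathways moved in both directions in the same comparison. Of 12 measured sterol handling genes 4 rose and 2 fell, and the largest difference was that of Soat2, which esterifies cholesterol for storage (-1.74 ± 0.102, adjusted p = 2.59e-09). Lipa, the lysosomal lipase that frees cholesterol from its esters (0.56 ± 0.108), and Abca1, the cholesterol exporter (0.49 ± 0.086), rose. Of 14 isoprenoid-using genes 2 rose and 5 fell, among them Coq2 of ubiquinone synthesis (-1.19 ± 0.096), Fnta, the shared subunit of the farnesyl and geranylgeranyl transferases (0.67 ± 0.072), and Rabggta (-0.66 ± 0.17). Of 10 SREBP processing and sterol sensing genes 2 rose and 4 fell, among them Rxrb (-0.75 ± 0.115) and Erlin2 (0.49 ± 0.079).

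Of 18 fatty acid supply and elongation genes 9 rose and 4 fell. They were led by Tecr, the last enzyme of the elongation cycle (0.99 ± 0.071, adjusted p = 2.59e-08), Mcat, which charges the mitochondrial acyl carrier protein (-0.66 ± 0.195, with overlap between groups), and Hacd2, an elongation dehydratase (0.57 ± 0.11). Of 16 fatty acid oxidation genes 7 rose and 2 fell. Cpt2 (0.80 ± 0.095) and Cpt1a (0.71 ± 0.067), the carnitine palmitoyltransferases that bring fatty acids into mitochondria, rose. The shares called were 50% of sterol handling, 50% of isoprenoid use, 60% of SREBP processing, 72.2% of fatty acid supply and 56.2% of oxidation genes, against 53.2% of all genes.

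The second comparison, ruxolitinib-treated against DMSO-treated, asked the same for a type I inhibitor, but its libraries are in a table of their own and its values are descriptions without a test. After centring, 2 of 31 members differed by at least 0.58 log2 units without overlap, 1 higher and 1 lower. The same rule counted 11.5% of the 11624 shared genes, 4.2% higher and 7.32% lower. Groups did not overlap for 15 of 31 members, and for 44.6% of all genes. The median difference was 0.070 over the members and 0.035 over all genes.

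Fads2 was again the member with the largest rise. Its centred log2 CPM was 7.64, 7.69 and 7.63 in DMSO-treated and 8.51, 8.82 and 8.47 in ruxolitinib-treated libraries, a difference of 0.94. Replicate 2, the library that stood apart, was the highest, and without it the difference was 0.83.
Idi1, which isomerizes isopentenyl diphosphate, was at 5.53, 5.43 and 5.35 in DMSO-treated and 4.83, 4.97 and 4.47 in ruxolitinib-treated libraries, a difference of -0.68. Without ruxolitinib-treated replicate 2, the library that stood apart, it was -0.79, and without replicate 3 it was -0.54 and no longer counted. The Idi1 value is uncertain because of its near copies. In the CHZ868-treated cells, Idi1 had differed by 0.046 ± 0.097 from the same controls.

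Further members without overlap were higher or lower by smaller amounts. Scd2 was at 9.06, 9.10 and 9.08 in DMSO-treated and 9.74, 9.40 and 9.64 in ruxolitinib-treated libraries, a difference of 0.51 that reached 0.61 and was counted without ruxolitinib-treated replicate 2. Nsdhl (0.48), Fads1 (0.44), Dhcr7 (0.34), Sc5d (0.31) and Acly (0.17) were higher, and Elovl6 (-0.40), Msmo1, the C-4 sterol methyl oxidase (-0.40), Fasn (-0.37), Stard4 (-0.30) and Mvd, the mevalonate diphosphate decarboxylase (-0.20), were lower. Tm7sf2 differed by -0.56 with overlap, and was counted without DMSO-treated replicate 2 (-0.65) or ruxolitinib-treated replicate 3 (-0.77). Hmgcs1 (0.064) and Cyp51 (0.13) overlapped with the controls. Srebf1 was at 6.49, 6.39 and 6.52 against 6.65, 6.65 and 6.78 (0.22) and Srebf2 at 7.38, 7.41 and 7.44 against 7.47, 7.58 and 7.51 (0.11), both without overlap, and Insig1 (0.053) and Insig2 (0.045) overlapped. Among the neighbouring pathways, Abca1 (0.94), Soat2 (-0.73), Coq2 (-0.76), Acss2, which activates acetate (0.65), Cpt1a (0.78) and Cpt2 (0.77) met the rule, and none of the 10 SREBP processing genes did.

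Set side by side on the centred scale at the same dose and time, 2 of 31 members differed between the inhibitor groups by at least 0.58 without overlap, both higher with CHZ868, against 9.65% of all genes. Nsdhl averaged 5.17 ± 0.276 (SD, n = 3) with ruxolitinib and 5.83 ± 0.222 with CHZ868. Idi1 averaged 4.76 ± 0.261 with ruxolitinib and 5.51 ± 0.084 with CHZ868. Smaller gaps without overlap included Cyp51 (5.52 ± 0.079 with ruxolitinib, 6.04 ± 0.049 with CHZ868), Hmgcs1 (6.05 ± 0.11, 6.49 ± 0.077) and Fasn (7.36 ± 0.099, 6.97 ± 0.101). Fads2 overlapped between the inhibitors. Both differences from DMSO share the same controls, and the gap between inhibitors was not tested because the tables were normalized separately.

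The third comparison, CHZ868-wash against DMSO-wash, asked what remained 6 h after a 1 h exposure. Only 2 of 31 members passed, Nsdhl and Stard4 (6.45%, against 4.02% of 11355 genes), and 11 members had an unadjusted p under 0.05, as did 24.4% of all genes. The median log2 difference was 0.0099 over the members and 0.0053 over all genes. The pro-B and receptor markers summed to 1699 to 1739 CPM in CHZ868-wash and 1740.5 to 1924 CPM in DMSO-wash libraries, and their part was not tested. Nsdhl was at 6.05, 5.75 and 6.43 in DMSO-wash and 5.34, 5.52 and 5.37 in CHZ868-wash libraries. It was lower in every CHZ868-wash library, by -0.67 ± 0.153 (adjusted p = 0.0427). Stard4 was at 7.05, 7.26 and 6.76 in DMSO-wash and 7.61, 7.49 and 7.53 in CHZ868-wash libraries, and was higher by 0.52 ± 0.119 (adjusted p = 0.0427).

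Both directions were the reverse of those under continuous CHZ868, and both calls depended on single libraries. They were lost without any of the CHZ868-wash libraries (adjusted p 0.141 to 0.171) or without DMSO-wash replicate 1 (0.146 for both). Without DMSO-wash replicate 3, the library that stood apart, both were kept, at -0.49 for Nsdhl (adjusted p = 0.0101) and 0.39 for Stard4 (adjusted p = 0.00647). In that fit 6 members passed, since Fads2 (-0.30, adjusted p = 0.0135), Fasn (-0.37, adjusted p = 0.00362), Fads1 (-0.25, adjusted p = 0.0375) and Srebf1 (-0.32, adjusted p = 0.043) passed as well. Without DMSO-wash replicate 2, which left Nsdhl at -0.83 and Stard4 at 0.64, Fads2 (-0.46, adjusted p = 0.0167) and Ebp (0.56, adjusted p = 0.0424) passed as well.

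With all libraries, Fads2 was at 8.57, 8.48 and 8.80 in DMSO-wash and 8.30, 8.16 and 8.22 in CHZ868-wash libraries (-0.39 ± 0.099, adjusted p = 0.0534), and Fasn at 8.69, 8.69 and 8.52 against 8.26, 8.34 and 8.38 (-0.31 ± 0.085, adjusted p = 0.0621). Neither passed, although no library overlapped. Hsd17b7 differed by 0.39 ± 0.136 (adjusted p = 0.114), Insig1 by 0.29 ± 0.104 (adjusted p = 0.119), Srebf2 by -0.21 ± 0.083 (adjusted p = 0.148), Srebf1 by -0.24 ± 0.114 (adjusted p = 0.216) and Insig2 by 0.19 ± 0.14 (adjusted p = 0.43). Sc5d (0.012 ± 0.105) and Cyp51 (0.0099 ± 0.11), which had risen under continuous CHZ868, were close to zero. Of the 29 members that did not pass, 24 had a 95% interval within 0.58 of zero. In the other lists, Scarb1, the HDL receptor (-0.39 ± 0.092), Rabggtb (0.35 ± 0.087), Tecr (-0.60 ± 0.127) and Hadhb of mitochondrial oxidation (0.47 ± 0.109) were the genes that passed.

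**Figure D4:**
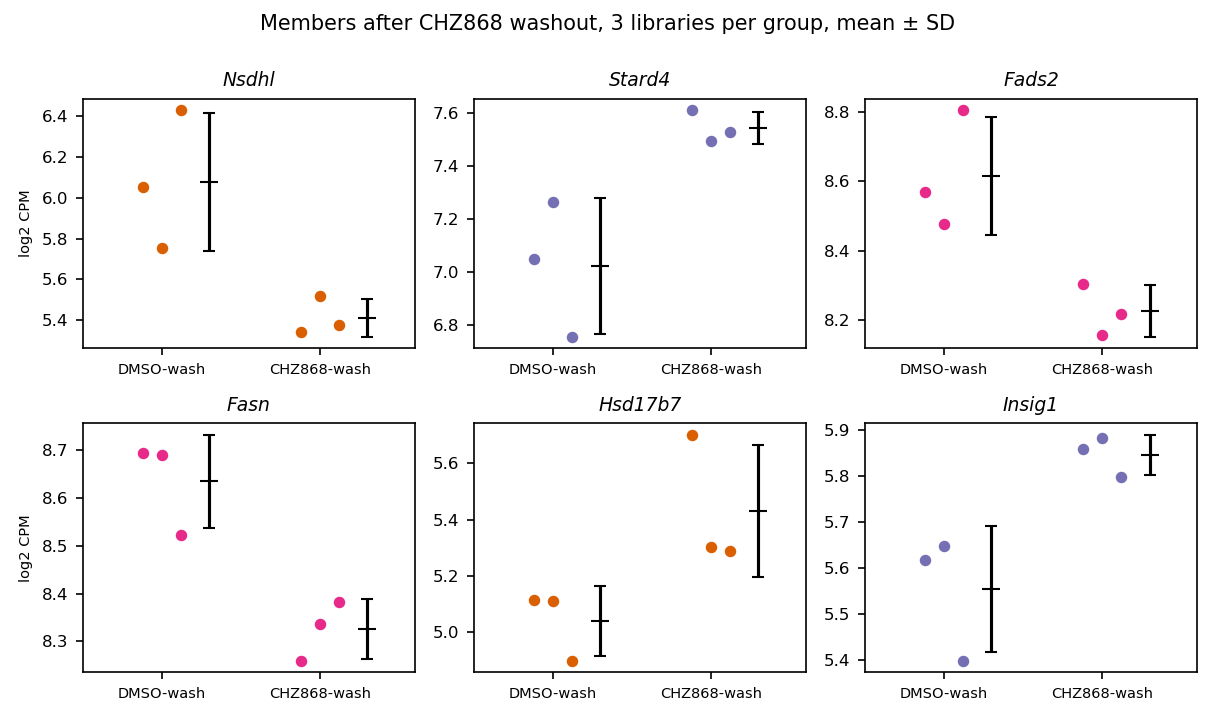
Log2 CPM of 6 members in DMSO-wash and CHZ868-wash libraries of the CHZ868 experiment; points are libraries, bars the mean and SD of 3. Nsdhl is lower and Stard4 higher in all CHZ868-wash libraries, and DMSO-wash replicate 3 lies at an extreme of its group in every panel.

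The fourth comparison, ruxo-wash against DMSO-wash, asked what remained after ruxolitinib was removed. No member of 32 passed, against 0.0229% of 13085 genes (3 genes), by limma-trend. At an unadjusted p under 0.05 there were 5 members, as against 7.03% of all genes, and limma without the trend or with vooma weights also called none. The pro-B and receptor markers summed to 329.9 to 358 CPM in ruxo-wash and 400.1 to 421 CPM in DMSO-wash libraries, and their part was not tested. The largest differences were those of Tm7sf2, Ebp and Cyp51, all in the sterol arm. Tm7sf2 was at 3.34, 3.04 and 3.49 in DMSO-wash and 3.85, 3.93 and 4.15 in ruxo-wash libraries (0.69 ± 0.148, adjusted p = 0.398). Ebp, the sterol isomerase, was at 4.83, 4.78 and 4.84 against 5.01, 5.22 and 4.97 (0.25 ± 0.082, adjusted p = 0.635). Cyp51 was at 4.85, 4.91 and 4.97 against 5.09, 5.12 and 5.05 (0.18 ± 0.059, adjusted p = 0.635). These ruxo-wash libraries lay above their controls without overlap, but the differences did not pass the correction over the table.

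Fads1 (-0.13 ± 0.048, adjusted p = 0.668), Msmo1 (-0.12 ± 0.048, adjusted p = 0.696) and Scd2 (0.075 ± 0.035, adjusted p = 0.724) also had libraries that did not overlap their controls, and Elovl6 differed by -0.18 ± 0.116 with overlap. None of these passed. Among the genes that led under CHZ868, Fads2 was at 7.67, 7.68 and 7.67 against 7.68, 7.69 and 7.68 (0.012 ± 0.026), Nsdhl differed by 0.0078 ± 0.061 and Fasn by -0.044 ± 0.041. Fdps, measured in this table only, was at 7.62, 7.64 and 7.52 against 7.60, 7.47 and 7.48 (-0.078 ± 0.052, adjusted p = 0.818), and shares sequence with 6 near copies. Srebf1 differed by -0.064 ± 0.059, Srebf2 by -8.76e-05 ± 0.034, Insig1 by -0.0069 ± 0.072 and Insig2 by 0.11 ± 0.216. Of 32 members, 30 had a 95% interval within 0.58 of zero, the exceptions being Tm7sf2 (up to 1.04) and Insig2 (up to 0.64). No gene of the other 5 lists passed.

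Whether the washout effects of the inhibitors differed was tested over 10078 genes and 12 libraries, each effect within its own table. Stard4 was the 1 member of 31 that passed, against 1.9% of genes: its ruxo-wash effect of -0.11 ± 0.061 lay 0.62 below its CHZ868-wash effect (-0.62, adjusted p = 0.0483). The call was lost in 10 of 12 fits that left out a library and kept without DMSO-wash replicate 2 or 3 of the CHZ868 experiment. Without that replicate 3, Stard4 passed together with Nsdhl (0.50), Fads2 (0.31), Fasn (0.32) and Msmo1 (-0.34), and without that replicate 2 together with Nsdhl (0.84) and Fads2 (0.47). The experiments also differed in their DMSO-wash libraries and tables, which cannot be told apart from the inhibitor here. At an unadjusted p under 0.05 there were 8 members, against 18.9% of genes. Srebf1, Srebf2, Insig1 and Insig2 did not pass.

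Whether continuous CHZ868 and CHZ868 washout affected the members differently was tested in the same way over 11175 genes. The effects differed for 13 of 31 members, 7 with the higher value under continuous exposure and 6 with the lower (41.9%, against 47.1% of all genes). Nsdhl differed most, with an effect of 1.11 under continuous exposure and -0.67 after washout (difference 1.78 ± 0.204, adjusted p = 3.75e-06). Fads2 followed, with 1.13 and -0.39 (1.52 ± 0.119, adjusted p = 5.94e-08). Stard4 went the other way, with -0.43 and 0.52 (-0.95 ± 0.147, adjusted p = 7.34e-05). Control levels also differed between these experiments, in both directions. Fads2 averaged 7.64 log2 CPM in DMSO-treated and 8.62 in DMSO-wash libraries, while Tm7sf2 averaged 3.40 and 2.07. Exposure, washing, control libraries and table cannot be told apart here.

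In the sterol arm, Sc5d (0.62 ± 0.136), Cyp51 (0.62 ± 0.157) and Dhcr7 (0.63 ± 0.176) had the higher effect under continuous exposure, and Tm7sf2 (-0.88 ± 0.319), Lss, the lanosterol synthase (-0.46 ± 0.16), and Msmo1 (-0.41 ± 0.159) the lower one. Hmgcs1 was the only mevalonate arm gene of 7 to pass (0.42 ± 0.127, adjusted p = 0.0124). Insig1 passed (-0.62 ± 0.185, adjusted p = 0.0112), with effects of -0.32 and 0.29 that were each short of the threshold alone. Srebf1 (0.11 ± 0.136), Srebf2 (0.19 ± 0.105) and Insig2 (-0.11 ± 0.208) did not pass. In the fatty acid arm, Fads1 (0.42 ± 0.102) and Fasn (-0.49 ± 0.106) passed with Fads2. The effects of Fasn were both negative, -0.79 under continuous exposure and -0.31 after washout, the second short of the threshold. Of the 13, 10 passed in all 12 fits that left out a library, and Lss, Tm7sf2 and Msmo1 did not. Lss passed in 5 of 12 (adjusted p up to 0.0685, without DMSO-treated replicate 3), Tm7sf2 in 7 (up to 0.0832, without DMSO-wash replicate 1) and Msmo1 in 4 (up to 0.104, without CHZ868-treated replicate 3). Of the other lists, Soat2 (-1.84 ± 0.156), Coq2 (-1.39 ± 0.182), Tecr (1.58 ± 0.15), Cpt2 (1.05 ± 0.172) and Rxrb (-0.93 ± 0.181) each had the largest difference of their list.

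**Figure D5:**
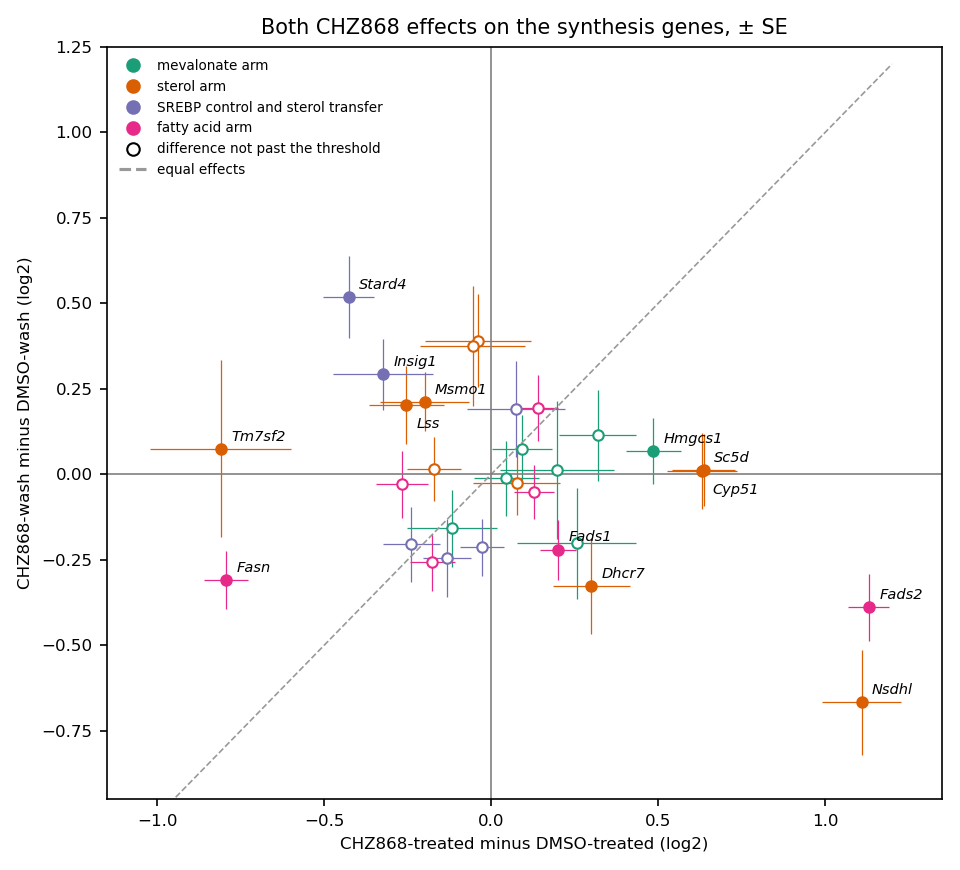
Log2 effect of 6 h with CHZ868 (x axis) and of CHZ868 washout (y axis) for 31 members, each against its own DMSO group, with SE bars and colours by role. Filled, named points are the 13 members whose effects differed at an adjusted p under 0.05, and the dashed line marks equal effects. Nsdhl and Fads2 lie at the lower right, and Stard4 at the upper left.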

How the data were processed

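mRNA sequencing of Ba/F3 JAK2-V617F cells covered 21 libraries in 7 groups of 3. The authors' methods state that reads were pseudo-aligned with kallisto to GRCm38 transcripts, summed per gene through biomaRt, converted to CPM in edgeR, filtered for low expression, TMM-normalized and fitted with voom and limma. The submitters' processing notes name STAR 2.7.3a, edgeR 4.0.16 and GRCm39 instead, and which route the authors used for the deposited tables was not settled. The authors deposited log2 CPM with a small constant added, in 4 tables normalized separately. No table gives counts per gene and the library kit was described as strand-specific, but strand use in the counting is not given in the sources used here.

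Each inhibitor group was compared with the DMSO group of its own table by limma-trend (limma 3.58.1, R 4.3.3) over all genes of the table, with Benjamini-Hochberg adjustment, and calls were made at an adjusted p under 0.05. Differences between effects were fitted with an interaction term on 12 libraries, over the genes held by both tables. Ruxolitinib-treated cells are alone in their table, so library medians over the 11624 genes common to both 6 h tables were subtracted and members were counted, with no test, where the groups differed by at least 0.58 log2 units without overlap. The fits were also run on simulated libraries with independent noise, with outcomes not given here. No simulated library was made to stand apart, so these runs cannot show how calls behave where one does. Whole reads were recovered from the deposited log2 values of 3 tables by removing the constant (100% of low values lay within 0.1 read of a whole number), which gave 7880000 to 10670000 reads per library on the listed genes. The ruxo-wash table gave no such steps, so its depth is unknown.

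The 33 members and all other lists were chosen with earlier results of these data known. Values in every library are given, per comparison, for up to 5 rises and 5 falls past the threshold without overlap, or for the 3 largest differences where none passed. Srebf1, Srebf2, Insig1 and Insig2 are described throughout, and up to 3 genes past the threshold are named from each other list. Some genes that this rule names are not reported here. Gene positions come from GENCODE M21 (GRCm38), and promoter windows of 250 bases before to 50 after the start from RefSeq (GRCm38.p6), found for 26 of 33 members. Near copies were taken as other transcripts with at least 90% identity over at least 200 bases (blastn 2.17.0). Alternatives were other scalings, filters, thresholds, weights, a constant of 1 CPM, the replicate number as a block and leaving out each library. The labels do not say that replicates came from separate cultures, so p-values measure the spread between these libraries only.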

Additional observations from a re-analysis of the deposited data

Results flagged for a closer look

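The results below were picked out because the effect of an inhibitor differed between 2 experiments, by a test of the difference itself (limma interaction term, adjusted p under 0.05 over all genes tested). Each value is a difference of log2 differences. Between the washout effects, ruxolitinib minus CHZ868, Stard4 differed by -0.62 and no other member passed. That call was kept in 2 of 12 fits that left out a library, and was lost without the trend, with vooma weights, with quantile normalization and with the replicate block. When the third DMSO-wash library (replicate 3) for CHZ868, which stood apart, was left out, Nsdhl (0.50), Fads2 (0.31), Fasn (0.32) and Msmo1 (-0.34) passed as well.

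Between the effects of continuous CHZ868 and of CHZ868 washout, 13 members differed. The effect was higher under continuous exposure for Nsdhl (1.78), Fads2 (1.52), Dhcr7 (0.63), Sc5d (0.62), Cyp51 (0.62), Fads1 (0.42) and Hmgcs1 (0.42). It was lower under continuous exposure for Stard4 (-0.95), Tm7sf2 (-0.88), Insig1 (-0.62), Fasn (-0.49), Lss (-0.46) and Msmo1 (-0.41). The experiments differ in exposure, washing, control libraries and table, which cannot be told apart here, and without the same DMSO-wash replicate 3, 13 members passed, with Elovl6 gained (-0.30) and Lss lost (-0.38, adjusted p = 0.051).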

How the results depend on the processing

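Depth limits the low members: Tm7sf2 rested on 28 to 44 reads in CHZ868-wash libraries, and ruxo-wash depth is unknown. With 3 libraries a group, an exact permutation test could not go below p = 0.1, so calls rest on the spread shared across genes by limma. For CHZ868-treated cells, 14 members passed, 6 when at least 0.58 log2 was also required and 10 to 15 when 1 library was left out. For ruxolitinib-treated cells, 2 were counted, 11 at 0.3 log2, 0 at 1 log2 and 2 to 3 with a library left out. For CHZ868-wash, 2 passed, 0 without the trend, 1 with at least 0.58 log2, 0 at an adjusted p under 0.01 and 0 to 6 with a library left out. For ruxo-wash, 0 passed under every alternative run, 0 to 0 with a library left out. For the difference between washout effects, 1 passed, and 0 without the trend, with vooma weights, with quantile normalization, with the replicate block or at an adjusted p under 0.01, with 0 to 5 when a library was left out. For the difference between CHZ868 effects, 13 passed, 8 with at least 0.58 log2, 8 at an adjusted p under 0.01 and 10 to 14 with a library left out. Where an alternative was neither a stricter threshold nor fewer libraries, the cause was not tested.

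Replicate numbers did not pair the libraries: the 9 correlations of same-numbered deviations ran from -0.054 to 0.051. With the number as a block, 12 members passed for CHZ868-treated, 2 for CHZ868-wash, 0 for ruxo-wash and 13 for the difference between CHZ868 effects.

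Among the named genes followed through the alternatives, signs reversed only for values near zero that passed no test. With 1 library left out, Srebf2 under CHZ868 ran from -0.060 to 0.033 and Insig2 from -0.054 to 0.20. In ruxolitinib-treated cells, which were not tested, Insig1 ran from -0.021 to 0.17 and Insig2 from -0.026 to 0.12. In ruxo-wash, Srebf2 ran from -0.0080 to 0.0077, Insig1 from -0.042 to 0.039 and Insig2 from -0.075 to 0.26, while median centring gave 0.0086 for Srebf2 and 0.00179 for Insig1. For Insig2, the difference between washout effects ran from -0.27 to 0.070 and that between CHZ868 effects from -0.24 to 0.013.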
